A study of Mus musculus with 10 samples.

Results

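The 10 genes described here mark the endothelial cells that line brain blood vessels, and they were chosen by name from 53715 counted genes. They were Cldn5, Cdh5, Pecam1, Flt1, Kdr, Tek, Slco1a4, Ly6c1, Itm2a and Vwf. Their transcripts were followed in bulk RNA sequencing of microglia, the resident macrophages of the brain, isolated from the midbrain (Mdb) and the striatum (Str) of untreated male C57BL/6 mice (C57BL/6 J in the study's methods) of 3 months. The mice were perfused, the tissue was dissociated with papain, and the cells were taken with beads against CD11b, a surface protein of myeloid cells, so endothelial cells were not the target of the isolation. Exp 1, the pilot cohort, had 2 Mdb and 2 Str libraries, and Exp 2, the second cohort, was tested with 2 Mdb libraries (Mdb 1 and Mdb 3) and 2 Str libraries (Str 1 and Str 3). For 2 further Exp 2 libraries the title and the label inside the count table give different regions, so these entered no comparison. The libraries came from 2 mice in Exp 1 and 3 in Exp 2, so midbrain and striatum libraries share animals, and tests over libraries count the regions of a mouse separately. No group was treated, and all groups share the strain and the age.

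Brain endothelial cells are sealed to each other by tight and adherens junctions and carry transporters that set what crosses the blood-brain barrier. They respond to vascular endothelial growth factor (VEGF) and to angiopoietins through receptor tyrosine kinases, and they store von Willebrand factor, which captures platelets. Several of the genes are not exclusive to the endothelium: Pecam1 is also found on leukocytes and platelets, Vwf in platelets, Itm2a in T cells and Ly6c1 beside a close relative of monocytes.

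Total counts ran from 4936234 to 8463782 in Exp 1. In Exp 2 they were 5176234 in Mdb 1, 4473445 in Mdb 3, 2820369 in Str 1 and 575709 in Str 3. Levels are given as CPM (counts scaled to a fixed total per library) after TMM scaling, a correction for library composition. The level worth 3 counts, used as a floor, was 0.35 to 0.567 CPM in Exp 1, 0.635 to 1.09 CPM in the 3 deeper libraries of Exp 2 and 5.14 CPM in Str 3. All 10 genes exceeded the floor in each Exp 1 library, against 4 of 10 in Str 3. Microglial markers were at summed levels of 11790 to 23060 CPM over the 8 libraries, and the 10 endothelial genes together at 62.3 to 421 CPM. In bulk libraries, fewer cells of a type and less RNA per cell cannot be told apart.

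The genes are spread over the genome (GRCm38, Gencode annotation). Cldn5 is a single exon at chr16:18776847-18778260 and Cdh5 lies at chr8:104101625-104144511, where Gm29682 overlaps it on the other strand. The exons of the pair do not overlap, so counting over exons keeps them apart. Flt1 (chr5:147561604-147726011) and Kdr (chr5:75932827-75978458) share a chromosome. Ly6c1 (chr15:75044018-75048830) has a close paralog, Ly6c2, a monocyte gene at chr15:75108158-75111970. The reference transcripts of the pair were identical at 97.6% of 822 aligned bases, and 31.7% of the 50-base windows of the Ly6c1 transcript occurred unchanged in that of Ly6c2. Reads from such windows cannot be told apart, so Ly6c1 is given beside Ly6c2 below.

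ETS transcription factors, which bind a GGAA core, are known regulators of endothelial genes. RefSeq promoters (GRCm38.p6, 250 bases before to 50 after the start) matched 7 of the 10 genes, and Flt1, Ly6c1, Slco1a4 and Itm2a held AGGAAG or CGGAAG on either strand. At least 1 such match was present in 46.5% of 32851 promoters, so 4 of 7 is close to that background. The promoters of Flt1 and of 1 of the 2 listed Ly6c1 starts are shown as 2 of the 3 genes that hold more than 1 match, the other being Itm2a, and 15.9% of all promoters do so too. The capitals mark the matches, which begin 129 and 53 bases before the start in Flt1, and 126, 38 and 34 bases before it in Ly6c1, where the last 2 overlap.
Flt1 promoter, chr5:147725962-147726261, minus strand: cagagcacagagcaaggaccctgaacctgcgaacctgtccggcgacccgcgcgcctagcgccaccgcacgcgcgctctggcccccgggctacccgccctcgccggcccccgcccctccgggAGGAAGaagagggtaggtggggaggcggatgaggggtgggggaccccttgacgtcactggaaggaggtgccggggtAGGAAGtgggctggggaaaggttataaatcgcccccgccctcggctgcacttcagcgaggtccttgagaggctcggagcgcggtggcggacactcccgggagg
Ly6c1 promoter, chr15:75048614-75048913, minus strand: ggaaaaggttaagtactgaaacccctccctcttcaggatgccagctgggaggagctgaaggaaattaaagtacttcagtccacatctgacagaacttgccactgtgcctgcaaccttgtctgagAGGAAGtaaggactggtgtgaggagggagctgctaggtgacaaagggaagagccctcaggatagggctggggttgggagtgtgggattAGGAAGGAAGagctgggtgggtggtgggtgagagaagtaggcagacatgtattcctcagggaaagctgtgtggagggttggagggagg

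Among the junction and adhesion genes, Cldn5 (claudin 5, the main tight junction claudin of the blood-brain barrier) was at 94.8 and 111 CPM in the Mdb libraries of Exp 1 and at 107 and 90.8 CPM in the Str libraries. In Exp 2 it was at 25.4 CPM in Mdb 1, 8.09 CPM in Mdb 3, 9.79 CPM in Str 1 and 5.14 CPM in Str 3, the last from 3 counts. The regions overlapped in both experiments, and every Exp 1 library was above every Exp 2 library. Cdh5 (VE-cadherin, of adherens junctions) was at 4.09 and 8.81 CPM (Mdb) and 7.94 and 6.29 CPM (Str) in Exp 1. In Exp 2 it was at 1.06 and 1.39 CPM in Mdb, and a single count was seen in each Str library. Pecam1 (CD31, an adhesion protein of endothelial junctions) was at 30.5 and 30.9 CPM in Mdb and 48.6 and 41.7 CPM in Str in Exp 1, and at 16.5 and 19 CPM in Mdb and 20.3 and 34.2 CPM in Str in Exp 2. Pecam1 was the only one of the 10 genes whose Mdb libraries were below both Str libraries in both experiments. The share of all genes that do so was not counted. In the Exp 2 libraries whose region is in doubt, Pecam1 was at 23.2 CPM (titled Mdb 2) and 9.79 CPM (titled Str 2).

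**Figure D1:**
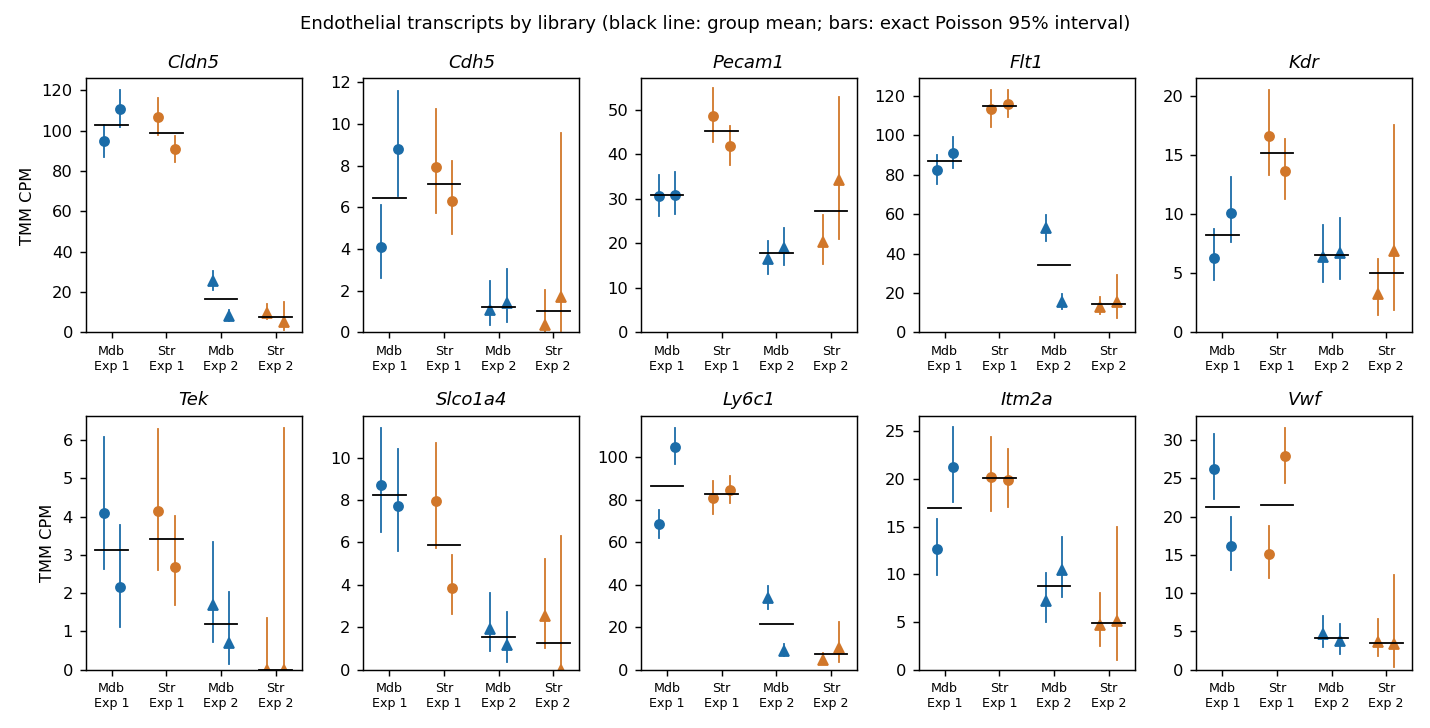
TMM CPM of each gene (y axis, starting at 0) in each assigned library, by region and experiment (x axis), circles for Exp 1 and triangles for Exp 2. Vertical bars are exact Poisson 95% intervals, which cover counting error only, and black lines are the means of 2 libraries; for Cldn5 the Exp 1 libraries sit between 90.8 and 111 CPM and the Exp 2 libraries between 5.14 and 25.4 CPM.

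Flt1 (VEGF receptor 1) was at 82.4 and 91 CPM in Mdb and 113 and 116 CPM in Str in Exp 1. In Exp 2 it was at 52.7 CPM in Mdb 1, against 15.3 CPM in Mdb 3, 13.1 CPM in Str 1 and 15.4 CPM in Str 3. Its Exp 1 levels were lower in both Mdb libraries than in either Str library, whereas in Exp 2 only Mdb 1 stood above the rest. Kdr (VEGF receptor 2, the main signalling receptor for VEGF) was at 6.31 and 10.1 CPM in Mdb and 16.6 and 13.6 CPM in Str in Exp 1, and at 6.35 and 6.71 CPM in Mdb and 3.26 and 6.85 CPM in Str in Exp 2. It too was lower in both Mdb libraries of Exp 1, and its regions overlapped in Exp 2. Tek (Tie2, the angiopoietin receptor) was at 4.09 and 2.16 CPM in Mdb and 4.16 and 2.68 CPM in Str in Exp 1. In Exp 2 it was at 1.69 and 0.694 CPM in Mdb and had 0 counts in both Str libraries, whose floors were 1.09 and 5.14 CPM, so a regional difference was not detectable at this depth.

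Of the transporter, surface and secreted genes, Ly6c1 (a lipid-anchored surface protein of brain capillaries) was at 68.4 and 105 CPM in Mdb and 80.7 and 84.7 CPM in Str in Exp 1. In Exp 2 it was at 33.7 CPM in Mdb 1, 9.02 CPM in Mdb 3, 4.71 CPM in Str 1 and 10.3 CPM in Str 3. Mdb 1 was thus the highest Exp 2 library for Ly6c1, as it was for Cldn5 and Flt1. Slco1a4 (an organic anion transporter of the blood-brain barrier) was at 8.7 and 7.73 CPM in Mdb and 7.94 and 3.85 CPM in Str in Exp 1, and at 1.91 and 1.16 CPM in Mdb, 2.54 CPM in Str 1 and 0 counts in Str 3 in Exp 2. Itm2a (an integral membrane protein) was at 12.6 and 21.2 CPM in Mdb and 20.2 and 19.9 CPM in Str in Exp 1, and at 7.2 and 10.4 CPM in Mdb and 4.71 and 5.14 CPM in Str in Exp 2, the last from 3 counts. Vwf was at 26.3 and 16.2 CPM in Mdb and 15.1 and 27.9 CPM in Str in Exp 1, and at 4.66 and 3.7 CPM in Mdb and 3.62 and 3.42 CPM in Str in Exp 2. In Exp 2, Itm2a and Vwf, like Tek, were thus higher in both Mdb libraries than in either Str library. Their Str 3 levels were at or below its floor. The share of all genes with separate regions within an experiment, in either direction, was not counted. For Slco1a4, Itm2a and Vwf, as for Cldn5, the lowest Exp 1 library lay above the highest assigned Exp 2 library. The exact Poisson upper 95% bounds of Slco1a4 (6.32 CPM) and Itm2a (15 CPM) in Str 3 nevertheless exceeded their lowest Exp 1 levels. Slco1a4 reached 4.88 CPM (8 counts) in the Exp 2 library titled Mdb 2, whose region is in doubt, and this is above its level in Str pilot 2.

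The first comparison asked whether the transcripts differed between the regions. In Exp 1 none of the 10 genes passed an unadjusted p under 0.01 (voom and limma), the threshold used within an experiment, which 2.64% of 14972 genes passed, and edgeR and DESeq2 also called 0. Kdr, Pecam1 and Flt1 came nearest, all lower in the midbrain. Kdr was at -0.94 ± 0.34 (log2 fold change Mdb over Str ± SE, limma adjusted p = 0.41), Pecam1 at -0.59 ± 0.21 (adjusted p = 0.406) and Flt1 at -0.45 ± 0.18 (adjusted p = 0.426). These 3 had an unadjusted limma p under 0.05, as did 10.9% of all genes tested. Without the library Str pilot 1, Flt1 passed (-0.49), in a fit in which 16.8% of all genes passed, and without Str pilot 2, Pecam1 (-0.66) and Kdr (-1.07) passed, with 4.22% of all genes. The other 7 genes had log2 fold changes between -0.35 and 0.6, and the median over the 10 was -0.2, against 0.02 over all genes.

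In Exp 2, 8 of the 10 genes passed the filter on low counts, Cdh5 and Tek did not, and none of the 8 passed the threshold, which 3.47% of 13486 genes passed. edgeR and DESeq2 also called 0 and no member had an unadjusted limma p under 0.05. Ly6c1 had the largest log2 fold change, 1.53 ± 0.8 (limma adjusted p = 0.538), followed by Flt1 with 1.04 ± 0.66 and Cldn5 with 0.76 ± 0.71, and Pecam1 was at -0.41 ± 0.4. The median over the 8 was 0.66, against -0.001 over all genes. The values turned on which midbrain library was kept, Mdb 1 being the higher for Flt1, Ly6c1 and Cldn5. Without Mdb 3, which left Mdb 1 as the only midbrain library, they were at 1.98 (Flt1), 2.63 (Ly6c1) and 1.52 (Cldn5). Without Mdb 1 the same genes were at 0.18 (Flt1), 0.73 (Ly6c1) and -0.14 (Cldn5).

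With both experiments in 1 fit and the experiment as a covariate, 0 of 10 genes had an adjusted p under 0.05 (Benjamini-Hochberg over all genes), which 1.06% of 14053 genes had. edgeR and DESeq2 also called 0, and 1 gene, Pecam1, had an unadjusted limma p under 0.05. Of all genes 14.6% had such a p, so 1 of 10 is not above that share. Pecam1 was lower in the midbrain, at -0.5 ± 0.18 on the log2 scale (limma adjusted p = 0.23), with a 95% interval of -0.89 to -0.1. Its exact two-sided permutation p within experiments was 0.0556, the smallest that 36 labelings allow, and no other member was below 0.278. The intervals of the other genes all included 0 and were widest for Tek (-0.845 to 1.51) and Cdh5 (-1.02 to 0.77) and narrowest for Cldn5 (-0.39 to 0.72), and differences within these intervals were not detectable here. The difference between the regional effects of the 2 experiments was tested with an interaction term, which called 0 of 10 genes and 0% of 14053 (771 genes at an unadjusted p under 0.05, no member among them). Kdr was nearest, with a regional log2 fold change higher in Exp 2 by 1.49 ± 0.69 (limma adjusted p = 0.86).

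**Figure D2:**
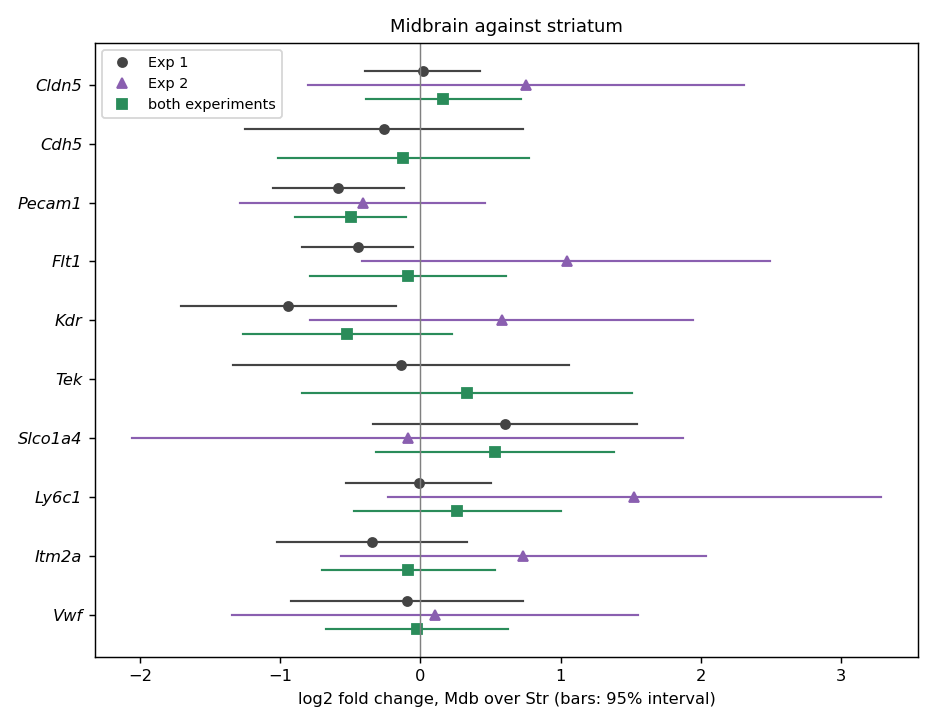
Log2 fold change of Mdb over Str (x axis) for each gene (y axis) in Exp 1, Exp 2 and both experiments together, with 95% intervals from limma. Cdh5 and Tek were not tested in Exp 2; in the joint fit only the interval of Pecam1, -0.89 to -0.1, leaves out 0.

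Markers of several other cell types, but not of all, differed between the regions in the same libraries. Of the monocyte markers, 6 of 8 were called higher in the midbrain in Exp 1 and 6 of 8 in Exp 2, and the border macrophage markers 8 of 8 in each, beside 2.09% and 2.88% of all genes called higher. Neutrophil genes were called higher in 8 of 10 and 5 of 10, T and NK cell genes in 2 of 6 and 3 of 7, and red blood cell genes in 0 of 5 and 4 of 4. By contrast, 3 of 10 microglial genes were called lower in each, beside 82 of 14972 genes in Exp 1 and 80 of 13486 in Exp 2. Fibroblast and meninges genes were called higher in 3 of 8 and 2 of 8, Ttr of the choroid plexus list was higher in Exp 1, and the astrocyte gene Slc1a3 was lower in Exp 2. In each experiment 0 of 13 pericyte and smooth muscle genes, 0 of 5 platelet genes and 0 of 7 oligodendrocyte genes were called. Summed T and NK cell levels were 78.2 to 93.8 CPM in Mdb and 20.2 to 41.4 CPM in Str in Exp 1, and 133 to 268 CPM in Mdb and 8.56 to 51.1 CPM in Str in Exp 2. Summed monocyte levels were 349 to 437 CPM in Mdb and 150 to 154 CPM in Str in Exp 1, and 863 to 2968 CPM in Mdb and 156 to 285 CPM in Str in Exp 2, with 2968 CPM in Mdb 1. Ly6c2, the paralog of Ly6c1, was at 304 CPM in Mdb 1, 88.1 CPM in Mdb 3, 28.3 CPM in Str 1 and 17.1 CPM in Str 3. In Exp 1 it was at 40.1 and 35.1 CPM in Mdb and 8.31 and 12.1 CPM in Str. Ly6c2 was called lower in Exp 1 than in Exp 2, the opposite of Ly6c1 below, and within Exp 2 both were highest in Mdb 1. The part of these cells in the regional values of Ly6c1, Pecam1 and Itm2a was not tested.

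Replicates of 1 group were then compared, library against library, as log2 CPM (prior count 2). Between the 2 Mdb libraries of Exp 1, Cdh5 alone differed by more than 1 on this scale (2-fold), as did 5.07% of all genes, and between the 2 Str libraries none of the 10 did, against 12.1% of all genes. Between Mdb 1 and Mdb 3, 3 of 10 did, against 14.4% of all genes. These were Ly6c1 (log2 difference 1.85), Flt1 (1.76) and Cldn5 (1.6), each higher in Mdb 1, whereas Pecam1 (-0.19), Kdr (-0.07) and Itm2a (-0.51) were lower there. Between Str 1 and Str 3, Cdh5, Ly6c1 and Slco1a4 did, against 28.6% of all genes, from at most 13 counts per gene in Str 1 and 6 in Str 3. Without the prior count, further low values also exceeded 2-fold. These were Tek, 2.44-fold higher in Mdb 1 than in Mdb 3, Slco1a4, 2.06-fold higher in Str pilot 1 than in Str pilot 2, and Kdr, with a ratio of Str 1 to Str 3 of 0.476. The gap between the 2 midbrain replicates of Exp 2 was for Cldn5, Flt1 and Ly6c1 larger than the fitted regional log2 fold change of the same experiment (0.76, 1.04 and 1.53).

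The levels above set the cohorts apart, and the experiment term of the joint fit was tested after these values had been seen. All 10 genes were higher in Exp 1 and 8 passed an adjusted p under 0.05, against 10.5% of 14053 genes in either direction and 5.82% higher in Exp 1. The median log2 fold change of Exp 1 over Exp 2 was 2.1, against 0.02 over all genes. Cdh5 and Tek passed the filter mainly on their Exp 1 counts (169 and 81 in all, against 13 and 11 in Exp 2), so their place among the tested genes is not independent of this direction. The cohorts were prepared as separate experiments, so the animals, the isolation and the sequencing cannot be told apart.

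Cldn5 had a mean of 100.8 ± 9.5 CPM in Exp 1 (SD, n = 4 libraries, both regions of 2 mice) and 12.1 ± 9.08 CPM in Exp 2, a difference of 3.01 ± 0.33 on the log2 scale or 8.05-fold (limma adjusted p = 0.00304). Cdh5 was 5.29-fold higher (adjusted p = 0.0203) and Pecam1 1.81-fold (adjusted p = 0.0234), the smallest of the differences. Of the receptors, Flt1 was 4.2-fold higher (100.6 ± 16.5 against 24.1 ± 19.1 CPM, limma adjusted p = 0.0104). Tek (4.28-fold, limma adjusted p = 0.0516) and Kdr (1.86-fold, limma adjusted p = 0.153) did not pass. Ly6c1 was 6.38-fold higher (84.7 ± 15.2 against 14.4 ± 13.1 CPM, limma adjusted p = 0.00651) and Vwf 5.08-fold (21.4 ± 6.63 against 3.85 ± 0.551 CPM, limma adjusted p = 0.00959). Slco1a4 was 4.27-fold higher (limma adjusted p = 0.0241) and Itm2a 2.42-fold (limma adjusted p = 0.0364).

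In 8 of the 10 genes, all but Pecam1 and Kdr, the 4 libraries of Exp 1 lay above the 4 assigned libraries of Exp 2, as they did or lay below in 17.4% of all genes. In Str 3 the counts of Tek, Cdh5, Slco1a4 and Itm2a were 0, 1, 0 and 3. Their exact Poisson upper 95% bounds there (6.32, 9.54, 6.32 and 15 CPM) exceeded the lowest Exp 1 level of each gene. The depth of Str 3 thus does not settle its place below Exp 1 for these genes. For each of the 8 the exact two-sided permutation p over libraries was 0.0286, the smallest that 70 labelings allow, and since regions of a mouse were permuted as separate libraries it is too small for a comparison of animals. Within the midbrain alone 3 genes passed (Cldn5, Ly6c1 and Vwf), against 2.99% of all genes, with log2 fold changes of 0.28 to 2.8 over the 10. Within the striatum none passed, against 0.0142% or 2 of 14053 genes, although the log2 fold changes were 0.94 to 3.74. An unadjusted limma p under 0.05 was seen for 9 of 10, against 13.8% of all genes. edgeR called 8 members and DESeq2 9 over all 8 libraries, with 10.3% and 14.9% of all genes called. The number fell to 4 without Mdb pilot 2, to 5 without Str 1 and to 5 without Str 3, with 2.22%, 7.61% and 4.51% of all genes called. Only Pecam1 had 10 counts in each library, and it passed under that filter, as did 18.4% of 7037 genes.

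**Figure D3:**
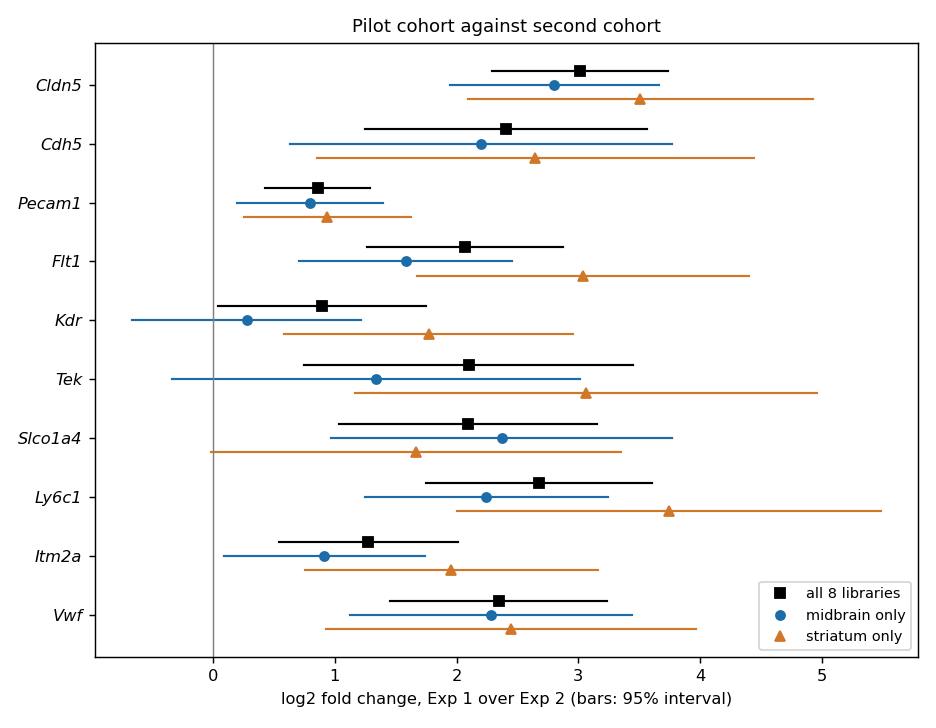
Log2 fold change of Exp 1 over Exp 2 (x axis) for each gene (y axis), over all 8 libraries, within the midbrain and within the striatum, with 95% intervals from limma. All points lie above 0, from 0.28 for Kdr in the midbrain to 3.74 for Ly6c1 in the striatum.

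The summed level of the 10 genes was 338 to 404 CPM in Mdb and 407 to 421 CPM in Str in Exp 1, and 75.4 to 151 CPM in Mdb and 62.3 to 82.2 CPM in Str in Exp 2. Pecam1, Ly6c1, Itm2a and Vwf are also made by blood cells or have a relative there. Without these 4 the sum was 200.4 to 257 CPM in Exp 1 and 29 to 89.2 CPM in Exp 2, and the lowest Exp 1 library again lay above the highest Exp 2 library.

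A wider list of 38 endothelial genes was read for the same comparisons. Between the regions 0 of 36 tested genes were called in Exp 1 (4 at an unadjusted limma p under 0.05), and 0 of 34 were called in the joint fit (5 at an unadjusted limma p under 0.05). Over all genes, 10.9% in Exp 1 and 14.6% in the joint fit had such a p. In Exp 2, 2 of 26 passed, both higher in the midbrain, beside 3.47% of all genes in either direction and 2.88% higher, so no excess is read from this count. Podxl (podocalyxin, a sialomucin of the luminal membrane) had 23 and 10 counts in Mdb 1 and Mdb 3 (4.87 and 2.31 CPM) and 0 in both Str libraries, so no fold is given. Rgcc (a cell cycle regulator) was at 48.5 and 29.6 CPM in Mdb against 12.3 and 15.4 CPM in Str, a log2 fold change of 1.5.

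Between the cohorts, 18 of the 34 tested genes of the wider list were called higher in Exp 1 and 0 lower, with a median log2 fold change of 1.36, beside 5.82% of all genes called higher. Sox17, Sox18, Tie1, Foxq1 and Nos3, 5 of the 18, did not pass the filter in Exp 2 and were tested through their Exp 1 counts, so their direction is not independent of the filter. The examples that follow were chosen after their values were seen. Ptprb (VE-PTP, the endothelial receptor phosphatase) was at 30 to 40.3 CPM in Exp 1 and 1.81 to 4.86 CPM in Exp 2 (log2 fold change 3.43 ± 0.35, limma adjusted p = 0.00186). Sox17 and Sox18, transcription factors of endothelial cells, were at 8.09 to 12.5 and 6.65 to 12.3 CPM in Exp 1, and no assigned Exp 2 library was above 1.48 CPM for either, while Sox17 was at 5.49 CPM (9 counts) in the unassigned library titled Mdb 2. Spock2, a secreted proteoglycan, was at 30.3 to 60.2 CPM in Exp 1 and 3.24 to 8.89 CPM in Exp 2. Not every endothelial gene differed this way: Cd34, a sialomucin of endothelial and progenitor cells, had a log2 fold change of -0.34 ± 0.17 (limma adjusted p = 0.204) and Tjp1, a tight junction scaffold, -0.64 ± 0.34 (limma adjusted p = 0.229).

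Of 12 partners in VEGF and angiopoietin signalling (ligands, coreceptors, further receptors and Ptprb), 9 were tested in the joint fit and 0 were called between the regions by limma. An unadjusted p under 0.05 was seen for 2, beside 14.6% of all genes. Nrp1, a coreceptor for VEGF that macrophages also express, was nearest, with 65.5 and 73.4 CPM in Mdb against 48 and 40.6 CPM in Str in Exp 1 and 76 and 83.5 CPM against 51.5 and 58.2 CPM in Exp 2. Its Mdb libraries were above the Str libraries in both experiments (joint log2 fold change 0.63 ± 0.15, limma adjusted p = 0.0761). The share of all genes that do so was not counted, so no support is read from this order. Between the cohorts, Tie1 (an orphan receptor that works with Tek) and Ptprb were called higher in Exp 1, and the ligand Vegfb (-0.13 ± 0.17, limma adjusted p = 0.646) was not called.

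Other cells of the vessel and the blood were compared between the cohorts with the same fit. Of 13 tested pericyte and smooth muscle genes, Notch3, Cspg4 and Myh11 were called higher in Exp 1 and 0 lower, and the summed level was 479 to 868 CPM in Exp 1 and 276 to 543 CPM in Exp 2. Of 5 red blood cell genes, Hbb-bs, Hba-a1 and Hba-a2 were called higher in Exp 1, with a sum of 1448 to 6821 CPM in Exp 1 and 90.8 to 2288 CPM in Exp 2. No platelet gene of 5 tested was called (1 at an unadjusted limma p under 0.05, which 29.1% of all genes had), and that sum was 129 to 152 CPM in Exp 1 and 94 to 157 CPM in Exp 2. In the other direction, 4 of 8 monocyte, 5 of 10 neutrophil, 3 of 10 microglial and 1 of 6 T and NK cell genes were called lower in Exp 1. Over all genes, 5.82% were called higher in Exp 1, and 662 of 14053 were called lower. No gene of the fibroblast and meninges, border macrophage or choroid plexus lists was called (2, 0 and 2 genes at an unadjusted limma p under 0.05), the astrocyte list had Gja1 lower and the oligodendrocyte list Cnp higher. The part of blood and mural cells in the endothelial values was not tested.

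**Figure D4:**
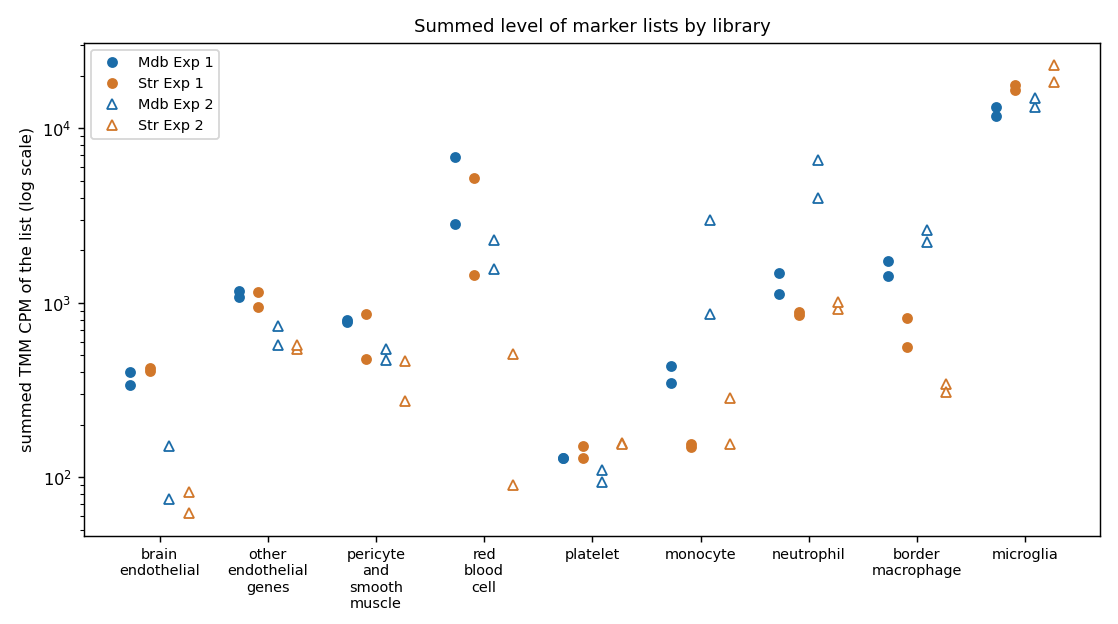
Summed TMM CPM of each marker list (y axis, log scale) in each assigned library, by list (x axis), with filled circles for Exp 1 and open triangles for Exp 2, blue for Mdb and orange for Str. The brain endothelial list separates the experiments (338 to 421 against 62.3 to 151 CPM), while the platelet list overlaps and the monocyte and border macrophage lists separate Mdb from Str within each experiment.

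Across the 8 libraries, each gene was set against the mean of the other 9 on the log2 CPM scale. Pearson's r was 0.974 for Cldn5, 0.966 for Flt1 and 0.958 for Ly6c1, and 0.757 for Kdr and 0.621 for Pecam1, the lowest. The libraries fall into 2 cohorts, so these values describe mainly the cohort difference. Among 8789 other genes with a mean of at least 10 CPM, those most like the mean of the 10 over the same 8 libraries were Cc2d1b (r = 0.988), Wdtc1 (0.987), Dlst (0.987), Prickle1 (0.981) and Notch3 (0.98), the last a receptor of pericytes and smooth muscle. Notch3 was at 44.2 to 60.8 CPM in Exp 1 and 15.2 to 20.1 CPM in Exp 2.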

How the data were processed

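The authors aligned the reads with STAR 2.5.3a to GRCm38, counted them with featureCounts 1.6.0 over Gencode M17 exons without strand, and deposited raw read counts of 53715 genes per library, not normalized. Symbols were matched to 53620 of them. Here 8 of the 10 libraries were assigned from their labels, and 2 whose labels disagree on the region were left out. Counts were scaled with TMM (edgeR 4.0.16) and fitted with voom and limma 3.58.1 in R 4.3.3, as in the study's methods. A gene was left out of a fit if over 50% of its libraries had under 6 counts. Calls were an unadjusted p under 0.01 within an experiment and a Benjamini-Hochberg adjusted p under 0.05 otherwise. All tests were two-sided.

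Levels are TMM CPM over all 10 libraries, and log2 CPM used a prior count of 2. Intervals and floors (3 counts) cover counting error only, since reads are not independent molecules. The study gives 2 mice for Exp 1 and 3 for Exp 2, and p-values measure the spread between these libraries. Deviations of libraries with the same replicate number were hardly correlated (-0.034 in Exp 1 and 0.078 in Exp 2), so no block was used. This check cannot show whether equal numbers name the same mouse. No libraries were identical. The script was tested on simulated data. The genes, lists and tests were chosen with earlier results of these data known, and the comparison of cohorts was added after seeing them.

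Named genes were the 10 members, genes of the wider endothelial and VEGF lists called between regions (at most 6 a list by joint change), summed levels of other lists with up to 3 of their genes, and the 5 genes most like the members' mean. Others were chosen after their values were seen. The settings varied were the tool (the edgeR quasi-likelihood fit or DESeq2 1.42.0), library size alone, no filter, at least 10 counts in every library, a replicate block, either placement of the 2 unassigned libraries and each library left out.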

Additional observations from a re-analysis of the deposited data

Results flagged for a closer look

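The 2 libraries of Exp 2 whose labels disagree on the region were used in no comparison, and the endothelial transcripts were above the floor of 3 counts in them for 8 of 10 genes (the library titled Mdb 2) and 9 of 10 (the library titled Str 2). Their summed levels of the 10 genes were 104.3 CPM in Mdb 2 and 79.89 CPM in Str 2. Both values lie within the range of the 4 assigned Exp 2 libraries, 62.3 to 151 CPM, and below that of Exp 1, 338 to 421 CPM.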

How the results depend on the processing

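The count of endothelial genes called between regions was 0 in the joint fit and the interaction under each alternative run. Of all genes, the joint fit called 0% with the unassigned libraries placed by title and 3.94% with DESeq2. The interaction called 0% in the main fit and 0.0142% with DESeq2. A count of 0 among the members says little in runs that called almost no gene. Leaving out single libraries within an experiment left 1 library in a group. Some of these fits called members in Exp 1 and in Exp 2. Each fit that did so also called a larger share of all genes than the main fit. The fit with a replicate block called 2 members in Exp 2 (Flt1 and Ly6c1). With that block 7.33% of all genes passed in Exp 2. Whether the replicate numbers pair the libraries by mouse is not known, and the block changed no other regional call. Numbers are nested in the experiments, so the cohorts were not compared with a block. Between the cohorts, 8 genes were called. The count was 1 with at least 10 counts in every library (1 gene tested, with 18.4% of all genes called). It was 3 within the midbrain, 0 within the striatum (2 libraries a cohort in each) and 4 to 8 without single libraries. The cause of the other changes was not tested. The summed level had a mean of 371, 414 and 72.3 CPM in Mdb Exp 1, Str Exp 1 and Str Exp 2, of 215.5, 244.9 and 29.05 CPM without Pecam1, Ly6c1, Itm2a and Vwf, and of 432.3 CPM in Str Exp 1 with library size alone.

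Several regional log2 fold changes changed sign, none of them past its threshold as reported or where its sign changed. In Exp 1 Ly6c1 was -0.013, and 0.022 with edgeR, 0.025 with DESeq2, 0.012 with library size alone, 0.011 with 10 counts in every library and 0.004 with the replicate block. With the unassigned libraries placed by title, Exp 2 gave 0.351 for Pecam1, 0.713 for Slco1a4, -0.064 for Itm2a and -0.036 for Vwf. In the joint fit, edgeR and DESeq2 gave 0.247 and 0.364 for Flt1, 0.072 and 0.084 for Cdh5, 0.141 and 0.152 for Itm2a, and 0.05 and 0.057 for Vwf. Flt1 was 0.005 with the replicate block and 0.007 by title, and Itm2a 0.002 with the unassigned libraries in the other region. Without single libraries, Exp 1 ranges were -0.795 to 0.304 for Cdh5, -0.313 to 0.311 for Ly6c1, -0.707 to 0.046 for Itm2a, -0.092 to 0.138 for Cldn5, -0.592 to 0.296 for Tek and -0.49 to 0.448 for Vwf. Exp 2 ranges were -0.136 to 1.523 for Cldn5, -0.033 to 0.335 for Vwf, -0.769 to 0.263 for Slco1a4 and -0.248 to 0.938 for Kdr. Joint ranges were -0.37 to 0.083 for Flt1, -0.452 to 0.321 for Cdh5, -0.269 to 0.256 for Itm2a, -0.323 to 0.374 for Vwf and -0.024 to 0.732 for Tek. The depth of Str 3, 575709 counts, limits the regional comparison in Exp 2.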
